A study of Mus musculus with 14 samples.

Results

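Genes that fold proteins in the endoplasmic reticulum (ER), move them across its membrane, remove misfolded ones and signal its stress were followed as a set of 35 named genes. They were listed by symbol under the known roles of their products, with earlier results of these data known, and all 35 were found among the 24054 genes of every table. All 35 also passed the filter on low counts in both fits described here. RNA was sequenced from small numbers of sorted mouse embryonic stem (ES) cells and their derivatives in 14 libraries of 6 groups. The d0con and d0ko groups (2 libraries each) are undifferentiated ES cells of day 0, sorted as Cherry-negative. The d3con and d3ko groups (3 libraries each) are Venus-positive cells after 3 days of endoderm differentiation with 12 ng/ml Activin A on Wnt3a feeder cells. The con cells have the genotype Foxa2-Venus-KO/+ and so keep a working allele of Foxa2, which encodes a forkhead transcription factor of the endoderm, while the ko cells (Foxa2-Venus-KO/Foxa2-Venus-KO) have none. Both genotypes carry the Venus reporter knocked into Foxa2, so there was no wild type. Each genotype is 2 clones, C59 and C63 for con and C9 and C17 for ko. Replicates 1 and 3 of a day 3 group come from the same clone (C59 or C9) and replicate 2 from the other. The d2-FVFn and d2-FVFp groups (2 libraries each) are ES cells of line T119, in which a TetON-Foxa2-Venus transgene makes Foxa2 fused to Venus under doxycycline. Doxycycline was given to both at 40 ng/ml for 48 hours before the cells were sorted as Venus-negative or Venus-positive, so d2-FVFn is not an untreated control. Replicates are separate samples by their titles, and the p-values measure the spread between these samples, which may in part be technical.

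The ER lumen holds an Hsp70 chaperone, BiP (the product of Hspa5), with co-chaperones and exchange factors, the Hsp90 protein Grp94 (Hsp90b1), disulphide isomerases, and the sugar-binding chaperones calreticulin and calnexin. When unfolded protein builds up, the sensors Ire1 (Ern1), Perk (Eif2ak3) and Atf6 start the unfolded protein response. Ire1 splices Xbp1 mRNA, Atf6 is cut to release a transcription factor, and Perk phosphorylates eIF2 alpha, which lowers translation in general and favours that of Atf4. Spliced Xbp1 and Atf6 raise chaperone and degradation genes, while Atf4, which amino acid shortage also raises through another kinase, induces genes such as Ddit3, Trib3, Chac1 and Asns. RNA-seq of whole genes, as here, counts all Xbp1 mRNA together and says nothing of splicing, cleavage or phosphorylation.

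The targeted gene Foxa2 (GRCm38 chromosome 2, 148042877 to 148046969) was at 58.6, 34.8 and 54.5 TPM (a level scaled for gene length and library size) in d3con, at 0.110, 0.150 and 0.190 TPM in d3ko, at 2.99 and 2.01 TPM in d2-FVFn and at 169 and 159.8 TPM in d2-FVFp. Library totals ran from 14142788 to 27278237 expected counts. The d3ko libraries were not alike: 8 pluripotency markers summed to 16106, 4465 and 18809 TPM in replicates 1, 2 and 3, against 14726 to 16752 at day 0 and 873 to 2047 in d3con. Dppa5a made up most of the day 0 sums (11377 to 13310 TPM) and of those of d3ko replicates 1 and 3 (14200 and 15543 TPM). Sox2 was at 89.3, 14.7 and 86.1 TPM in d3ko against 79.4 to 94.0 at day 0. Pou5f1 was at 522.5, 500.9 and 943.7 TPM in d3ko against 1335 to 1467 at day 0. Read lengths were inferred from the deposited length and effective length of genes with a single transcript. By these, replicate 1 of d3con and of d3ko had 75-base reads and all others 50-base reads. The study itself gives 50-base single-end reads for these series. The 12 fibroblast or feeder markers summed to 14.6 and 16.5 TPM in d0con, 40.8 and 144 in d0ko, 318, 62.95 and 224 in d3con and 309, 141 and 381 in d3ko, and to between 5.15 and 7.69 in the doxycycline libraries. Of these, Col1a1, which encodes a chain of type I collagen, was at 180.2, 30.3 and 119.7 TPM in d3con and 168, 67.2 and 259.6 in d3ko, and Fap was at or near 0 everywhere. Of the 12, 4 had a mean of at least 1 TPM in d0con, 9 in d0ko, and 11 in each day 3 group. The 8 definitive endoderm markers summed to 5253, 3818 and 5379 TPM in d3con and 775, 773 and 1224 in d3ko. Most of each sum was Trh, at 4242, 3012 and 4403 TPM in d3con and 718, 625 and 1199 in d3ko. Trh was already at 618 to 1630 TPM at day 0. Sox17 was at 130.5, 62.4 and 109.8 TPM in d3con and 2.10, 1.25 and 0.76 in d3ko. In such bulk samples fewer cells of a type and less RNA per cell cannot be told apart.

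Promoters came from the RefSeq annotation of GRCm38.p6, as 250 bases before and 50 after each annotated start, and 29 of the 35 genes had a match by symbol. They were searched on both strands for the elements through which the unfolded protein response is known to act, so that the values below could be set beside them. The ER stress response element ERSE, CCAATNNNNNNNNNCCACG, was found in the promoters of 9 of the 29 genes, against 0.119% of all 32851 promoters of the same length. ERSE-II, ATTGGNCCACG, was in 2 of 29 and in 0.0365% of all. UPRE, TGACGTGG, was in none of the 29 and in 0.676% of all. The element of Atf4 and C/EBP factors, CARE, TGATGNAA, was in 4 of 29 and in 3.97% of all. No match means only that these letters were not in this window. Hsp90b1 held 2 ERSEs, and Herpud1 held both an ERSE-II and a CARE. Their positions are drawn in the map of response elements, counted from the start site.

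**Figure D1:**
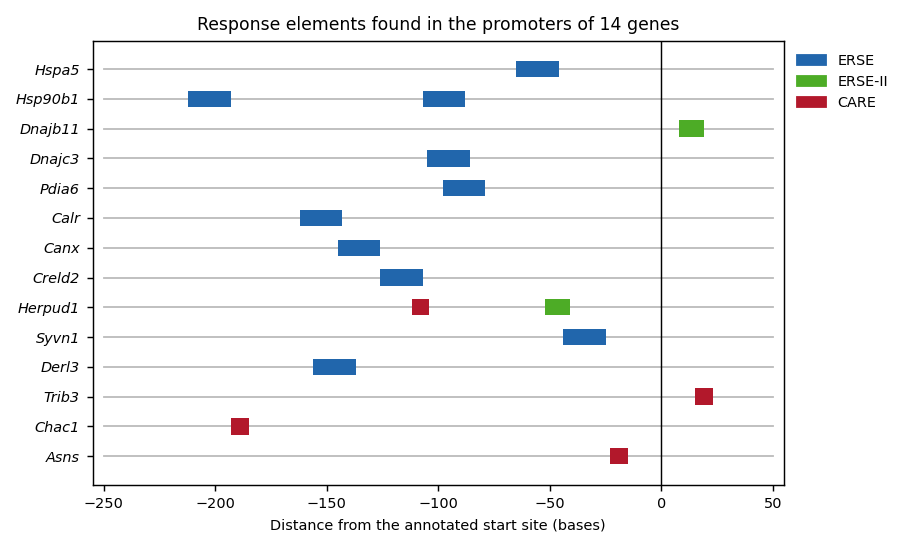
Positions of ERSE (blue), ERSE-II (green) and CARE (red) matches, on either strand, in the promoters of the 14 genes that held any, as distance in bases from the annotated start site (vertical line). The CARE of Trib3 and the ERSE-II of Dnajb11 lay after it.

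The bases from 250 to 1 before the start are given in full for Hspa5, whose ERSE is the best known, and for Herpud1, which carries elements of both kinds. They read 5′ to 3′ along the gene, with the matches in capitals.
Hspa5 (chr2:34771840-34772089, plus strand): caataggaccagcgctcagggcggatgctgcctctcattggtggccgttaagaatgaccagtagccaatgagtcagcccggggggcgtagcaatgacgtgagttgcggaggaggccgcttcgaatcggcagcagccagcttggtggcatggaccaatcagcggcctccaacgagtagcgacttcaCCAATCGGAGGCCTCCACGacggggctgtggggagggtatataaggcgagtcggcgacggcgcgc
Herpud1 (chr8:94386179-94386428, plus strand): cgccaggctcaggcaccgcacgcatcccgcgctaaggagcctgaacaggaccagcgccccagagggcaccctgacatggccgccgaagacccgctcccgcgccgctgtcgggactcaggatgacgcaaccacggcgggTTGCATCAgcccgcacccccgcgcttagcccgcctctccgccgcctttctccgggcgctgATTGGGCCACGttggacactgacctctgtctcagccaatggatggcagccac

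The other ERSE and ERSE-II matches are shown in capitals with 8 bases on each side, along the gene, to compare the spacers. A match that starts with CGTGG lies on the opposite strand.
Hsp90b1 (chr10:86705630-86705664, minus strand, match from -212 to -194): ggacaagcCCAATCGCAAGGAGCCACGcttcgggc
Hsp90b1 (chr10:86705525-86705559, minus strand, match from -107 to -89): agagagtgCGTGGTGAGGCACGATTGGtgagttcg
Dnajc3 (chr14:118937819-118937853, plus strand, match from -105 to -87): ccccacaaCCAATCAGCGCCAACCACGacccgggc
Pdia6 (chr12:17266483-17266517, plus strand, match from -98 to -80): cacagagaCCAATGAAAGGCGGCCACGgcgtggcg
Calr (chr8:84847067-84847101, minus strand, match from -162 to -144): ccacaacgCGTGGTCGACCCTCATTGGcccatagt
Canx (chr11:50325792-50325826, minus strand, match from -145 to -127): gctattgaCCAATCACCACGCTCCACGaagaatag
Creld2 (chr15:88819512-88819546, plus strand, match from -126 to -108): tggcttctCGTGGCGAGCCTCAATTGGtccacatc
Syvn1 (chr19:6046524-6046558, plus strand, match from -44 to -26): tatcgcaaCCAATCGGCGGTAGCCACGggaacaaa
Derl3 (chr10:75893234-75893268, plus strand, match from -156 to -138): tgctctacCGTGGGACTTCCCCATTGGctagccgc
Dnajb11 (chr16:22857844-22857870, plus strand, match from 8 to 18): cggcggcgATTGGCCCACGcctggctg

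The CARE matches of the genes induced by Atf4 are shown in the same way, since these genes spread widely between replicates in the values below. The CARE of Herpud1 is the first run of capitals in its promoter above.
Chac1 (chr2:119351041-119351064, plus strand, match from -193 to -186): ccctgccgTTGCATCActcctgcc
Trib3 (chr2:152344031-152344054, minus strand, match from 15 to 22): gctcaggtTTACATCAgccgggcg
Asns (chr6:7693217-7693240, minus strand, match from -23 to -16): cagccacaTGATGAAActtcccgc

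Levels of the 35 genes spanned about 3 orders of magnitude on the TPM scale. At day 0 and in the doxycycline series chaperones and isomerases were the highest. Calr ranged from 596 to 1667 TPM over the 14 libraries, Hspa5 from 380.0 to 1124, Hsp90b1 from 461 to 856 and P4hb from 343 to 824. At day 3 Asns was among them, with a mean of 699.5 TPM in d3con and, above all others of the set, 1078 in d3ko. The 3 sensors were low, with Ern1 at 0.880 to 2.99 TPM, Eif2ak3 at 3.88 to 11.7 and Atf6 at 7.94 to 20.3. All 35 together summed to 5365 and 5512 TPM in d0con, 5799.9 and 5810.2 in d0ko, 6669 to 7287 in d3con and 6433 to 7116 in d3ko. They summed to 7204 and 7479.6 TPM in d2-FVFn and to 8530.2 and 9160.2 in d2-FVFp, the highest of the 6 groups. Part of the difference between days is common to all genes: over all genes tested the median log2 ratio of mean TPM was 0.22 for d3con over d0con and 0.19 for d3ko over d0ko. On the scale of the fits (TMM-scaled counts, by which all fold changes below are given) those medians were 0.07 and 0.07.

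**Figure D2:**
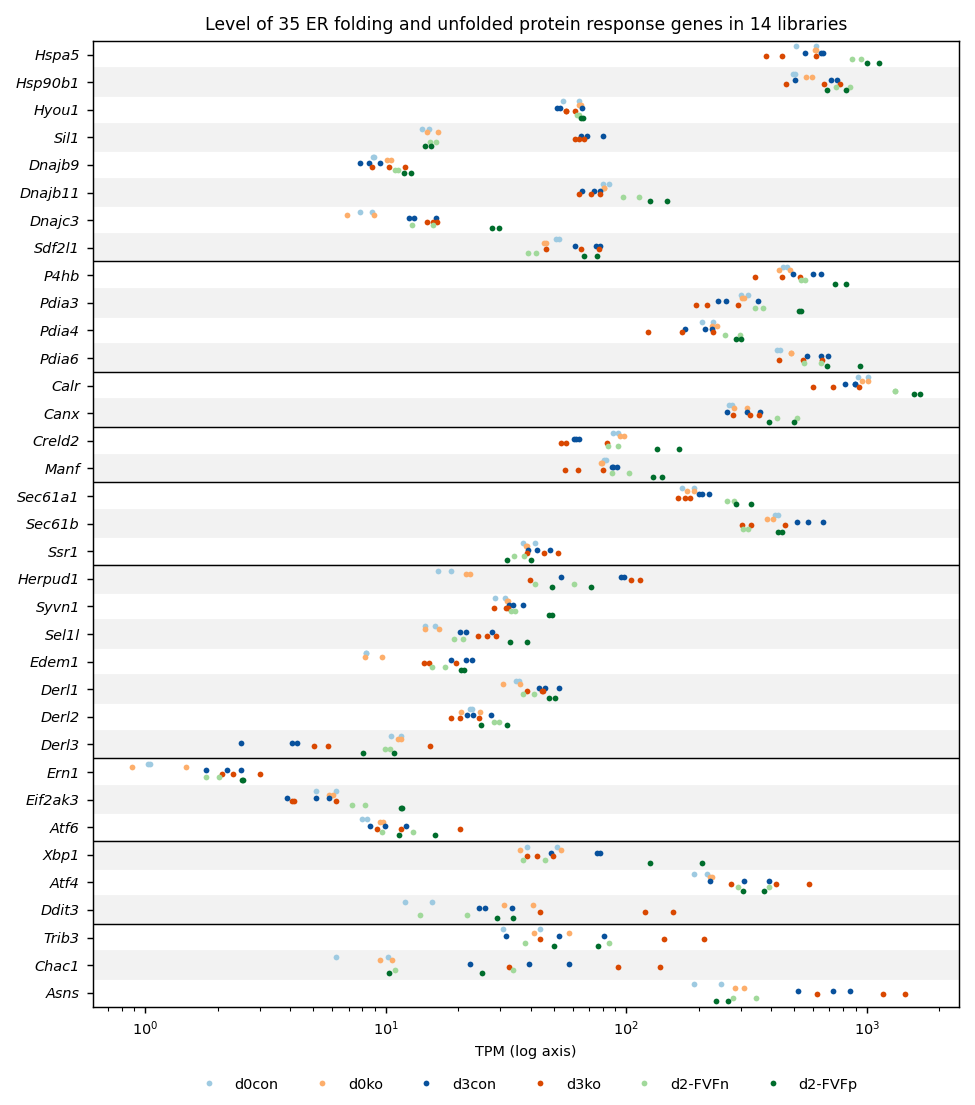
TPM (log axis) of the 35 genes, grouped by role from chaperones (top) to Atf4 targets (bottom), with a point for each of the 14 libraries coloured by group. Sil1 and Herpud1 sit apart at day 3, Xbp1 in d2-FVFp, and the widest spread within a group is that of Ddit3, Trib3 and Chac1 in d3ko.

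The change over 3 days of differentiation was asked in each genotype. In d3con against d0con 5 genes rose (Sil1, Herpud1, Edem1, Chac1 and Asns) and Derl3 fell, where a call needed an adjusted p under 0.05 and a log2 fold change above 1 or below -1. That is 6 of 35 (17.1%), beside 35.2% of all 13899 genes tested. In d3ko against d0ko 4 rose (Sil1, Herpud1, Chac1 and Asns) and none fell, 4 of 35 (11.4%) beside 17.3% of all genes. With no fold threshold 9 of 35 (25.7%) passed in either genotype, beside 52.1% of all genes in d3con against d0con and 30.0% in d3ko against d0ko. The difference of these shares from those of all genes was not tested. The median log2 fold change of the 35 was 0.14 in d3con against d0con, with 21 above 0, and -0.07 in d3ko against d0ko, with 15 above 0, beside 0.07 over all genes in each.

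**Figure D3:**
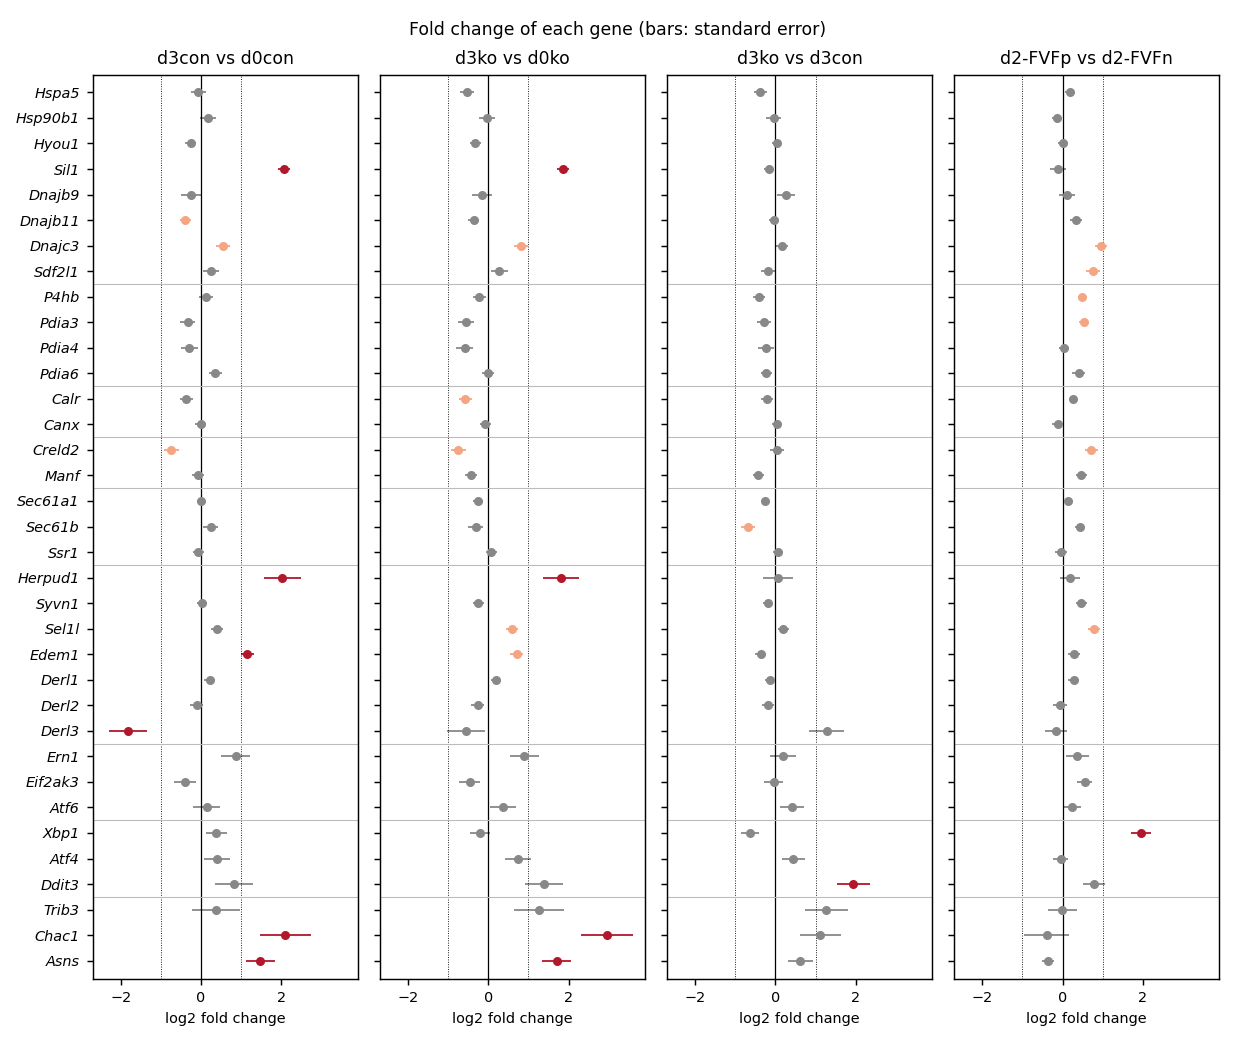
Log2 fold change (point) and standard error (bar) of each of the 35 genes in 4 comparisons, with dotted lines at 1 and -1. Red points passed an adjusted p under 0.05 and the fold threshold, orange points the adjusted p alone, and grey points neither. Only Sil1, Herpud1, Chac1 and Asns are red in both day comparisons, Ddit3 is red in d3ko vs d3con and Xbp1 in d2-FVFp vs d2-FVFn.

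Among the luminal chaperones Sil1 (chromosome 18, 35266396 to 35499390), which encodes a nucleotide exchange factor of BiP, rose about alike in both genotypes. It was at 15.1 and 14.2 TPM in d0con and at 64.8, 68.5 and 80.2 in d3con (log2 fold change 2.07, SE 0.15, adjusted p = 0.000123). In the ko cells it was at 16.5 and 14.8 TPM on day 0 and at 63.4, 61.2 and 66.5 on day 3 (1.85, SE 0.15, adjusted p = 0.000486). Every day 3 library lay above every day 0 library, with no overlap, and the 4 doxycycline libraries lay at the day 0 level, at 14.5 to 16.2 TPM. Beside these Sil1 values the feeder markers of replicates 1, 2 and 3 summed to 318, 62.95 and 224 TPM in d3con and 309, 141 and 381 in d3ko. The part of feeder RNA in the Sil1 values was not tested.

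The main chaperones did not move with Sil1. Hspa5 was at 616 and 507 TPM in d0con and 553, 657 and 647 in d3con (log2 fold change -0.07, SE 0.18, adjusted p = 0.772), so the groups overlapped. In ko cells it was at 612 and 618 TPM on day 0 and 380.0, 616 and 443 on day 3 (-0.53, SE 0.18, adjusted p = 0.0512), with replicate 2 at the day 0 level and the other two below it. Hsp90b1 and Hyou1, an Hsp110-type exchange factor of BiP, gave log2 fold changes of 0.18 and -0.26 in con cells and of -0.03 and -0.32 in ko cells, none called. Dnajc3, a J-domain co-chaperone with an ERSE, rose by less than the fold threshold: it was at 8.74 and 7.82 TPM in d0con and 12.5, 16.2 and 13.1 in d3con (0.55, SE 0.17, adjusted p = 0.022), and at 6.93 and 8.93 TPM in d0ko and 14.9, 16.3 and 15.7 in d3ko (0.82, SE 0.17, adjusted p = 0.00842). The groups did not overlap in either genotype. Dnajb11, another J-domain co-chaperone, was slightly lower in d3con than in d0con (-0.39, SE 0.14, adjusted p = 0.0392) and did not pass in ko cells (-0.36, SE 0.14, adjusted p = 0.0794), though it did with the replicate number as a block (-0.41, SE 0.13, adjusted p = 0.0482). The co-chaperone genes Dnajb9 and Sdf2l1 passed in neither genotype, with log2 fold changes of -0.25 and 0.25 in con and -0.15 and 0.28 in ko cells.

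Of the 4 disulphide isomerases, which form and reshuffle disulphide bonds, none passed in either genotype. Their log2 fold changes lay between -0.34 (Pdia3) and 0.36 (Pdia6) in con cells and between -0.58 (Pdia4) and -0.01 (Pdia6) in ko cells, with the others in between. With the replicate number as a block Pdia3 passed without reaching the fold threshold, lower at day 3 in con (-0.50, SE 0.12, adjusted p = 0.012) and ko cells (-0.72, SE 0.12, adjusted p = 0.00789), and with the clone as a block it did not (adjusted p = 0.139 and 0.0625). The lectin chaperones hold glycoproteins until they are folded. Calr was at 1017 and 961 TPM in d0ko and 596, 726 and 928 in d3ko and fell by less than the fold threshold (-0.57, SE 0.17, adjusted p = 0.0303). With the clone as a block, since same-numbered libraries of a genotype share a clone, the adjusted p of Calr was 0.0506. In con cells Calr did not pass (-0.36, SE 0.17, adjusted p = 0.0934) and Canx passed in neither (0.00 and -0.07). Creld2, a secreted ER stress protein with an ERSE, was lower at day 3 in both genotypes: 92.5 and 88.5 TPM in d0con against 62.02, 60.9 and 63.8 in d3con (-0.75, SE 0.19, adjusted p = 0.0091), and 93.8 and 97.7 in d0ko against 56.3, 53.7 and 82.9 in d3ko (-0.75, SE 0.19, adjusted p = 0.0171). No day 3 library reached the day 0 level of its genotype. Manf, another secreted ER stress protein, did not pass (-0.08 and -0.42). The translocation genes Sec61a1 and Sec61b, subunits of the channel, and Ssr1, of the translocon-associated complex, did not pass either, at 0.01, 0.24 and -0.07 in con and -0.25, -0.31 and 0.08 in ko cells.

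The genes of ER-associated degradation, which returns misfolded proteins to the cytosol for the proteasome, went in different directions. Herpud1 (chromosome 8, 94386429 to 94395371), a membrane protein of the retrotranslocation complex, was at 16.6 and 18.6 TPM in d0con and 97.5, 53.6 and 95.2 in d3con (log2 fold change 2.02, SE 0.46, adjusted p = 0.00587). In ko cells it was at 22.4 and 21.6 TPM on day 0 and 114, 39.7 and 105 on day 3 (1.81, SE 0.45, adjusted p = 0.0168). Day 3 lay above day 0 in both genotypes with no overlap, and replicate 2 was the lowest of its day 3 group in both. Herpud1 and Calr lie on chromosome 8, whose 561 genes had a median log2 difference of -0.44 in d3ko replicate 2 from the mean of the other 2 d3ko libraries. The part of that shift in the values of these 2 genes was not tested. Edem1, a lectin-like protein that hands misfolded glycoproteins to degradation, was at 8.28 and 8.26 TPM in d0con and 18.8, 22.8 and 21.6 in d3con (1.14, SE 0.16, adjusted p = 0.000709). It was at 8.19 and 9.68 TPM in d0ko and 14.4, 19.6 and 15.2 in d3ko, a rise under the fold threshold (0.71, SE 0.16, adjusted p = 0.0113).

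Derl3, a member of the derlin family of the retrotranslocation channel, was the only gene of the set that fell beyond the threshold. It was at 10.5 and 11.5 TPM in d0con and 2.49, 4.27 and 4.09 in d3con (log2 fold change -1.83, SE 0.48, adjusted p = 0.011). In ko cells it was at 11.2 and 11.6 TPM on day 0 and 5.01, 5.73 and 15.2 on day 3 (-0.56, SE 0.47, adjusted p = 0.385), with replicate 3 above the day 0 libraries and the other two below. Its relatives Derl1 and Derl2 gave 0.21 and -0.11 in con and 0.19 and -0.26 in ko cells. Sel1l and Syvn1 encode the adaptor and the ubiquitin ligase of the Hrd1 complex. Sel1l rose in ko cells by less than the fold threshold, from 14.6 and 16.7 TPM to 28.7, 24.1 and 26.3 (0.59, SE 0.15, adjusted p = 0.0201), and was close to the threshold in con cells (0.40, SE 0.15, adjusted p = 0.0534), while Syvn1 gave 0.01 and -0.24.

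None of the 3 sensors and none of the 3 transcription factors was called between the days in either genotype. Ern1 gave log2 fold changes of 0.86 (SE 0.37) in con and 0.90 (SE 0.37) in ko cells from levels under 3 TPM, Eif2ak3 gave -0.40 and -0.46, and Atf6 gave 0.14 and 0.36. Xbp1 was at 51.7 and 38.5 TPM in d0con, 36.2 and 53.8 in d0ko, 75.3, 48.8 and 77.6 in d3con and 42.7, 38.6 and 49.5 in d3ko, so that all 4 groups overlapped. Atf4 gave 0.40, SE 0.33, adjusted p = 0.323 in con and 0.74, SE 0.33, adjusted p = 0.118 in ko cells. Ddit3 gave 0.82, SE 0.47, adjusted p = 0.172 in con and 1.40, SE 0.47, adjusted p = 0.0512 in ko cells, the latter just outside the threshold.

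Of the 3 targets of Atf4, Asns and Chac1 rose over the 3 days and Trib3 did not pass. Asns (chromosome 6, 7675165 to 7693209), asparagine synthetase, was at 191 and 249 TPM in d0con and 856, 518 and 725 in d3con (log2 fold change 1.47, SE 0.36, adjusted p = 0.00861). In ko cells it was at 284 and 309 TPM on day 0 and 1438, 624 and 1170.5 on day 3 (1.70, SE 0.37, adjusted p = 0.00992), again with no overlap. Chac1 (chromosome 2, 119351242 to 119354326), which degrades glutathione, was at 6.20 and 10.2 TPM in d0con and 58.1, 22.4 and 39.6 in d3con (2.10, SE 0.63, adjusted p = 0.02), and at 9.47 and 10.6 in d0ko and 138, 32.6 and 92.2 in d3ko (2.96, SE 0.65, adjusted p = 0.0104). Both rose without overlap with day 0. Trib3, a pseudokinase that restrains this branch, was at 30.8 and 43.7 TPM in d0con and 80.6, 31.6 and 52.8 in d3con (0.38, SE 0.60, adjusted p = 0.615), and at 41.5 and 58.1 in d0ko and 211, 43.8 and 144 in d3ko (1.26, SE 0.61, adjusted p = 0.146). Its replicate 2 at day 3 lay within the range of the day 0 libraries of the same genotype in both.

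Sil1 held in all 15 alternatives in both genotypes and Edem1 in all 15 in con cells, while other calls depended on single libraries. Without d0con replicate 1 the count in d3con against d0con was 3 in place of 6, as Herpud1, Chac1 and Asns missed the adjusted p, which lay between 0.0516 and 0.134 for them. Derl3 was lost without d0con replicate 2, and Chac1 also without d0con replicate 2 or d3con replicate 1. Leaving out either d0ko library left only Sil1 called in d3ko against d0ko, and Herpud1 was also lost there in the fit of only these groups and without the 75-base libraries.

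Whether cells without Foxa2 differ in these genes was asked at day 3. In d3ko against d3con Ddit3 alone was called, higher in d3ko, which is 1 of 35 (2.86%) beside 8.26% of all 13899 genes. With no fold threshold 2 passed (5.71%), beside 10.5% of all genes, the other being Sec61b. Ddit3 (chromosome 10, 127290793 to 127296291), which encodes the stress factor Chop, was at 33.4, 25.9 and 24.3 TPM in d3con and 119.8, 43.9 and 157 in d3ko (log2 fold change 1.94, SE 0.42, adjusted p = 0.0227). Every d3ko library lay above every d3con library, with replicate 2 much nearer to them than the other two. Replicates 1 and 3 of d3ko were also those with summed pluripotency markers, mostly Dppa5a, at or above the day 0 level. Sox2 was at the day 0 level in these libraries, while Pou5f1 was below it in all d3ko libraries. The 11 dissociation and sorting response genes summed to 386, 396 and 368 TPM in d3con and 668, 363 and 686 in d3ko, so this sum too was high in replicates 1 and 3 of d3ko. Its largest member was Ier2, at 171, 197 and 189 TPM in d3con and 334, 130 and 400 in d3ko. Jun did not follow, at 38.7, 22.6 and 32.5 TPM in d3con and 27.9, 22.1 and 17.4 in d3ko. The part of either set of markers in the Ddit3 difference was not tested. At day 0 Ddit3 was at 11.97 and 15.6 TPM in d0con and 31.1 and 41.1 in d0ko (1.36, SE 0.51, adjusted p = 1), also without overlap. The call was lost in 8 of 15 alternatives, with log2 fold changes from 1.55 to 2.32 and adjusted p from 9.62e-05 to 0.169: among others in the fit of only the 6 day 3 libraries, with both 75-base libraries left out, with replicates of a clone summed, and without replicate 1 or 3 of either group. Fewer of all genes were called there too. The first 3 of these fits called 7 higher and 60 lower, 0 and 1, and 0 and 1, against 660 and 488 in the main fit.

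Sec61b was at 659, 512 and 571 TPM in d3con and 331, 457 and 305 in d3ko (-0.68, SE 0.17, adjusted p = 0.0368), with all d3ko libraries below all d3con libraries. This call too was lost in 8 of the 15 alternatives, the same ones as for Ddit3. The other 33 genes did not pass in this comparison, Xbp1 (-0.63, SE 0.23, adjusted p = 0.112) and Manf (-0.43, SE 0.13, adjusted p = 0.0729) among them. Derl3 (1.27, SE 0.44, adjusted p = 0.0961), Trib3 (1.26, SE 0.54, adjusted p = 0.162) and Chac1 (1.12, SE 0.51, adjusted p = 0.192) had log2 fold changes above 1 that did not pass. Because d3ko replicate 2 stood apart in some of its marker sums, the comparison was repeated without it, a fit in which all d3ko libraries come from clone C9. The spread within d3ko is then that of a single clone, so genotype and clone cannot be told apart. The library left out was also the lowest of d3ko for Ddit3, Trib3 and Chac1. Then 4 genes were called, all higher in d3ko, which is 11.4% of 35 beside 16.3% of all genes: Ddit3 (2.32, SE 0.24, adjusted p = 0.00041), Trib3 (1.68, SE 0.38, adjusted p = 0.0134), Chac1 (1.51, SE 0.39, adjusted p = 0.0217) and Derl3 (1.51, SE 0.44, adjusted p = 0.0338). With no fold threshold 12 passed (34.3% beside 27.4%), 5 higher and 7 lower. The fifth that was higher was Asns (0.90, SE 0.23, adjusted p = 0.0215), and the 7 lower ones were Sec61b, Hspa5, Manf, P4hb, Edem1, Pdia4 and Pdia6, with log2 fold changes from -0.87 (Sec61b) to -0.37 (Pdia6). The adjusted p of Hspa5 was then 0.00913, from levels of 380.0 and 443 TPM in the remaining d3ko libraries and 553, 657 and 647 in d3con.

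At day 0 none of the 35 genes was called in d0ko against d0con, nor were any of the 13899 genes tested by edgeR (0%, with 195 at an unadjusted p under 0.05), and DESeq2 called 1 gene, not of the set. Ddit3 was the only one of the 35 with an unadjusted p under 0.05 in edgeR. Leaving Ddit3 aside, log2 fold changes lay between -0.21 (Sdf2l1) and 0.39 (Asns). Whether the change over 3 days differed between the genotypes was tested as an interaction, and here too 0 of 35 and 0% of all genes were called by edgeR, with 0 of the 35 and 1840 of all genes at an unadjusted p under 0.05. DESeq2 called 0 of the 35, and 301 higher and 265 lower among all genes. The differences in log2 fold change between ko and con ran from -0.58 (Xbp1, SE 0.36) to 1.26 (Derl3, SE 0.68). A change called in only the con cells, as of Edem1 or Derl3, was therefore not shown to differ from that in ko cells.

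Several genes of the Atf4 branch varied widely between the day 3 libraries of a group. Over all genes tested the median range between the libraries of d3ko, from highest to lowest log2(TPM + 1), was 0.58. It was 2.24 for Trib3, 2.04 for Chac1, 1.81 for Ddit3 and 1.502 for Herpud1, wider than in all but 3.36%, 4.63%, 6.52% and 10.3% of genes. In d3con the median was 0.43 and Chac1 and Trib3 ranged over 1.34 and 1.33, but Ddit3 over 0.44, which 48.3% of genes exceeded. At day 0, with 2 libraries a group, the ranges were narrower, as were the medians over all genes, 0.12 in d0con and 0.13 in d0ko. Beside other genes some were still wide. Chac1 ranged over 0.64 in d0con, exceeded by 3.83% of genes. Trib3 ranged over 0.49 in d0con and 0.47 in d0ko, exceeded by 7.05% and 7.30%. Others were not, as Atf4 at 0.02 and Herpud1 at 0.05 in d0ko, exceeded by 90.7% and 78.2% of genes. Among Atf4, Ddit3, Trib3, Chac1, Asns and Herpud1, replicate 2 was the lowest d3ko library in 6 of 6 genes. In d3con replicate 2 was the lowest library in 5 of 6, Ddit3 being the exception. Several of these genes are induced by Atf4, so they are not separate counts. Herpud1 also lies on chromosome 8, whose genes were lower in d3ko replicate 2. Over the whole set replicate 2 was the lowest library for 15 genes in d3ko and 16 in d3con, and replicate 1 for 17 in each. The same count over all genes was not made. At day 0 replicate 2, of the same clone, was instead the highest d0con library in 6 of 6 genes and the highest d0ko library in 4 of 6. Over the whole set day 0 replicate 2 was the higher library for 17 genes in d0con and 18 in d0ko, and replicate 1 for 18 and 17. Atf4 itself was at 393, 224 and 309.9 TPM in d3con and 575, 273 and 420.4 in d3ko. These replicates 2 come from the clones C63 and C17, and their summed feeder markers were also the lowest of each group, at 62.95 and 141 TPM. Single markers of that list differed. Pdgfrb was highest in replicate 2 of both groups, at 7.52 and 18.7 TPM, and Dcn in d3ko was lowest in replicate 3. The 7 mesoderm markers of these replicates 2 had the highest sum of each group, at 196 TPM against 34.4 and 65.2 in d3con and 397 against 58.5 and 77.4 in d3ko. The part of clone, feeder RNA or mesoderm cells in this spread was not tested.

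Replicates differed in these genes in the doxycycline series too. Replicate 1 was above replicate 2 in d2-FVFn for 6 of 6 genes and in d2-FVFp for 5 of 6, again with Ddit3 as the exception. Over the whole set replicate 1 was the higher library for 16 genes in d2-FVFn and 14 in d2-FVFp, and replicate 2 for 19 and 21. Chac1 was at 33.96 and 10.9 TPM in d2-FVFn against 25.03 and 10.3 in d2-FVFp, and Trib3 at 84.8 and 37.8 against 76.3 and 50.05. The range of Chac1 within d2-FVFn, 1.55, was exceeded by 0.147% of genes, and that of Trib3, 1.15, by 0.525%. In d2-FVFp the range of Chac1, 1.21, was exceeded by 0.603% of genes and that of Trib3, 0.60, by 9.05%. The range of Asns there was exceeded by 57.2% of genes and that of Ddit3 by 48.7%.

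**Figure D4:**
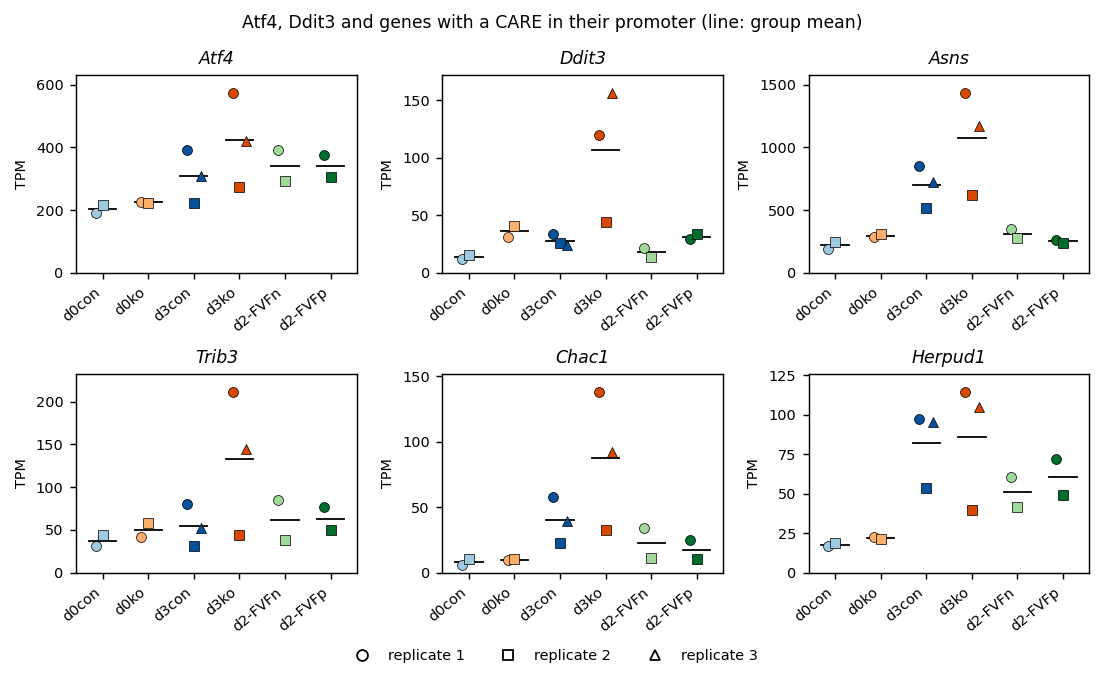
TPM of Atf4, Ddit3 and 4 genes with a CARE in their promoter in each library, by group, with circles, squares and triangles for replicates 1, 2 and 3 and a line at the group mean. The square lies lowest in d3ko in all 6 panels and in d3con in all but that of Ddit3, and the circle lies above the square in d2-FVFn in all 6.

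The doxycycline series asks what induced Foxa2 does in ES cells. In d2-FVFp against d2-FVFn Xbp1 was the only gene of the set past the fold threshold, 1 of 35 (2.86%) beside 8.43% of all 12943 genes tested. With no fold threshold 7 of 35 were higher, beside 9.96% of all genes in that direction, and none was lower (16.5% of all genes in either direction). The median log2 fold change of the 35 was 0.26, with 25 above 0, beside 0.01 over all genes. Xbp1 (chromosome 11, 5520641 to 5525993), the transcription factor of the Ire1 branch, was at 45.8 and 37.1 TPM in d2-FVFn against 206 and 125 in d2-FVFp (log2 fold change 1.95, SE 0.25, adjusted p = 0.00404), a 3.87-fold difference on the scale of the fit. Both d2-FVFp libraries lay above all other 12 libraries of the series, in which Xbp1 was at 36.2 to 77.6 TPM. The call held in all 9 alternatives, with log2 fold changes from 1.57 to 2.28 and adjusted p of up to 0.0279. In d3con, where Foxa2 was expressed after differentiation, Xbp1 was at 67.2 ± 16.01 TPM (SD, n = 3) against 43.6 ± 5.48 in d3ko (SD, n = 3), with overlap.

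The 6 smaller rises were of co-chaperones, isomerases, a secreted stress protein and a degradation factor. Dnajc3 was at 12.8 and 15.7 TPM in d2-FVFn against 27.6 and 29.4 in d2-FVFp (0.95, SE 0.16, adjusted p = 0.0104), and Sdf2l1, a BiP cofactor, at 42.3 and 39.1 in d2-FVFn against 75.4 and 66.8 in d2-FVFp (0.76, SE 0.16, adjusted p = 0.023). Creld2 was at 84.3 and 92.3 TPM against 166 and 134 (0.72, SE 0.15, adjusted p = 0.0225) and Sel1l at 20.9 and 19.2 against 38.5 and 32.8 (0.78, SE 0.14, adjusted p = 0.0144). In all 7 genes both d2-FVFp libraries lay above both d2-FVFn libraries, but the genes were picked by this same comparison. The same was seen in genes that did not pass, such as Hspa5, Calr and Sec61a1. Among the isomerases Pdia3 was at 344 and 370.0 TPM in d2-FVFn against 532 and 525 in d2-FVFp (0.52, SE 0.10, adjusted p = 0.0176), P4hb at 534 and 555 against 740.4 and 824 (0.48, SE 0.11, adjusted p = 0.0243), and Pdia4 and Pdia6 did not pass (0.04 and 0.40). The count of 7 was 9 by DESeq2, by which 1443 of all genes were higher in place of 1289. Without either d2-FVFn library, which leaves 1 in that group, fewer passed, both of these 7 and of all genes. Creld2 was thus higher in d2-FVFp than in d2-FVFn and lower at day 3 than at day 0.

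**Figure D5:**
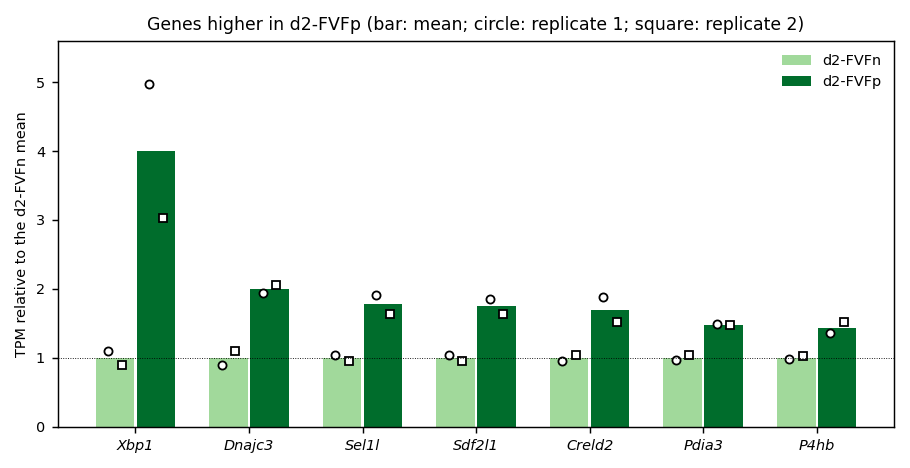
TPM of the 7 genes higher in d2-FVFp at an adjusted p under 0.05, divided by the d2-FVFn mean of each gene, with bars for group means and symbols for both libraries of a group. Xbp1 rises most and the 2 groups overlap for none of the 7, which were picked by this same comparison.

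The other 28 genes of the set did not pass in the doxycycline series. Hspa5 was at 869 and 951 TPM in d2-FVFn against 1000.2 and 1124 in d2-FVFp (0.18, SE 0.11, adjusted p = 0.292), without overlap. Hsp90b1, Hyou1, Sil1, Dnajb9 and Canx gave log2 fold changes of -0.14, 0.01, -0.12, 0.11 and -0.12. Just outside the threshold were Syvn1 (0.47, SE 0.13, adjusted p = 0.0543), Manf (0.46, SE 0.14, adjusted p = 0.0572), Sec61b (0.43, SE 0.13, adjusted p = 0.0582), Eif2ak3 (0.54, SE 0.18, adjusted p = 0.0739) and Ddit3 (0.78, SE 0.27, adjusted p = 0.0871). Of the 11 genes with an ERSE or ERSE-II, 2 (Dnajc3 and Creld2) were among the 7, and of the 4 with a CARE none. Asns (-0.37, SE 0.15, adjusted p = 0.127), Chac1 (-0.40) and Trib3 (-0.01) did not pass. The dissociation and sorting response genes summed to 581 and 509 TPM in d2-FVFn against 926 and 843 in d2-FVFp. Pluripotency markers summed to 8678 and 7123 TPM against 6222 and 4709, definitive endoderm markers to 412 and 606 against 1465 and 1749, and the 15 markers of primitive, visceral and parietal endoderm to 225 and 237 against 333 and 399. Nearly all of the definitive endoderm sum was Trh, at 404 and 599 TPM against 1451 and 1741. Of these 8 markers 3 had a mean of at least 1 TPM in d2-FVFp, and Sox17 was at 0.16 and 0.59 TPM there. The part of these markers and of the dissociation and sorting response in these differences was not tested.

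Wider lists of the same pathways were read beside the 35. Over all genes tested 20.6% rose and 14.6% fell in d3con against d0con, and 11.6% rose and 5.72% fell in d3ko against d0ko, and the counts below stand beside these. Of 40 further ER folding enzymes, 16 rose and none fell in d3con against d0con, and 11 rose and none fell in d3ko against d0ko. Serpinh1 (chromosome 7, 99345375 to 99353239), the collagen chaperone Hsp47, was at 23.0 and 26.5 TPM in d0con and 384, 269 and 402 in d3con (3.62, SE 0.37, adjusted p = 0.000234), and at 26.7 and 44.5 in d0ko and 358, 271 and 183 in d3ko (2.76, SE 0.35, adjusted p = 0.00136). Fkbp7, a prolyl isomerase of the lumen, rose as well in d3con (3.36, SE 0.46, adjusted p = 0.00064). The summed feeder markers were also higher on average at day 3 (values above), in cells sorted as Venus-positive. Their part was not tested. Of 27 genes tested for ER-associated degradation beyond the 35, 5 rose and 2 fell in con and 3 rose and 1 fell in ko cells, the latter Ubxn8 (-1.17, SE 0.21, adjusted p = 0.00528). The lists were written with results of these data known and no list was tested as a whole. Of 12 oligosaccharyltransferase subunits 1 rose in each genotype, of 22 signal recognition and translocation genes 2 fell in con cells and none moved in ko cells, and of 25 ER export genes 1 rose in con cells and none moved in ko cells.

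Of 26 further regulators tested, 4 rose and 4 fell in con cells and 1 rose and 3 fell in ko cells. Those that fell most were Nfyc (-1.44, SE 0.11, adjusted p = 0.000132), a subunit of the factor that binds the CCAAT part of the ERSE, and Bax (-1.34, SE 0.22, adjusted p = 0.00129) in con cells, and Eif2ak1 (-1.16, SE 0.22, adjusted p = 0.00579), an eIF2 alpha kinase, and Bcl2l11 (-1.13, SE 0.31, adjusted p = 0.0247) in ko cells. Of 42 Atf4 and amino acid response genes 12 rose and 3 fell in con cells, and 17 rose and none fell in ko cells. The leading ones were Vldlr, a lipoprotein receptor (6.79, SE 0.66, adjusted p = 0.000219 in con and 6.18, SE 0.63, adjusted p = 0.000756 in ko cells), and Slc1a4, a neutral amino acid carrier (2.72, SE 0.35, adjusted p = 0.00153 in ko cells), while Slc7a3, a cationic amino acid carrier, fell in con cells (-2.02, SE 0.39, adjusted p = 0.00291). Of the 33 genes of this list with a RefSeq promoter, 12 held a CARE. As lists for comparison, 9 of 19 cytosolic heat shock genes fell and 3 rose in con cells, and 6 fell and 2 rose in ko cells. Of 8 mitochondrial chaperone genes 2 fell in con cells and 1 in ko cells.

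In d3ko against d3con (4.75% of all genes higher) 3 of the 42 tested genes of the Atf4 and amino acid response list were higher, and none of the other lists. The difference of this share from that of all genes was not tested. Cth, which makes cysteine, was at 76.98, 59.3 and 52.98 TPM in d3con and 396, 113 and 274 in d3ko (2.04, SE 0.40, adjusted p = 0.0173), Cbs, the enzyme before it, at 5.90, 16.7 and 8.95 against 25.3, 18.97 and 45.3 (1.52, SE 0.40, adjusted p = 0.0423), and Nupr1, a stress-induced chromatin protein, at 46.5, 10.2 and 17.2 against 374, 33.99 and 243 (3.11, SE 0.85, adjusted p = 0.0478). In all 3, d3ko replicate 2 was the lowest of its group, and for Nupr1 it lay below d3con replicate 1. Of the regulators 1 was lower in d3ko, and none of the other lists had a call. In d2-FVFp against d2-FVFn (6.96% of all genes higher) 9 genes of the ER and Atf4 lists were higher and 1 lower. Those higher were 2 of 40 folding enzymes, 1 of 22 translocation genes, 1 of 26 regulators, 3 of 41 Atf4 genes and 2 of 25 export genes. None of 12 oligosaccharyltransferase subunits or 27 degradation genes was higher. The 3 that led by the naming rule were Kdelr3, a receptor that returns ER proteins from the Golgi (7.68 and 6.22 TPM in d2-FVFn against 31.7 and 34.2 in d2-FVFp, log2 fold change 2.20, SE 0.22, adjusted p = 0.00211), Nupr1 (1.87, SE 0.45, adjusted p = 0.0311) and Creb3l2, an ER-bound transcription factor of secretory genes (1.86, SE 0.28, adjusted p = 0.0072). The folding enzymes among them were Pdia5 and Serpinh1, and the 1 lower gene was Slc7a3 (-1.27, SE 0.12, adjusted p = 0.00184).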

How the data were processed

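RNA-seq of 14 libraries was used. The authors aligned reads with STAR and quantified genes with RSEM on mm10 (GRCm38), by the submitters' processing notes, and versions are not given in the sources used here. The deposited expected counts are RSEM's estimated counts per gene, not normalized. The deposited TPM values scale them by effective gene length and to the same total in every library. The study compared groups with DESeq2. Symbols matched RefSeq for 35 of 35 genes, and coordinates are from its GRCm38.p6 annotation.

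Expected counts were rounded and tested with edgeR 4.0.16 (R 4.3.3) by the quasi-likelihood test with TMM scaling, with a fit for the 10 libraries of both days and another for the 4 doxycycline libraries. Genes with at least 1 CPM in at least 2 libraries of a fit were tested, 13899 and 12943. P-values were adjusted by Benjamini-Hochberg over all genes tested, and a call needed an adjusted p under 0.05 and a log2 fold change above 1 or below -1. A standard error (SE) is the log2 fold change over the square root of its F. Ranges used log2(TPM + 1).

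The members and all lists were chosen with earlier results of these data known. All 35 members are described, and of the wider lists up to 3 called genes in each direction per comparison with a mean of at least 5 TPM in the higher group. On simulated counts, 4-fold changes were recovered in 65% (d3con against d0con, 13899 genes), 68.5% (d3ko against d3con, 13899) and 92.5% (d2-FVFp against d2-FVFn, 12943) of 200 changed genes, and 1.5-fold changes with no fold threshold in 0%, 0% and 6.5%. In the data 7246, 1466 and 2139 genes passed with no fold threshold in these comparisons. With only 200 changed genes the adjustment is stricter, so the simulated shares do not give the recovery in the data.

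Libraries of replicates 1 and 2 of d0 and d3 share a clone within a genotype, by the file names and methods. Their deviations correlated over genes at 0.03 and -0.005 for con and -0.03 and 0.07 for ko. Alternatives were RLE size factors, DESeq2 1.42.0, no filter, a mean count of at least 50, no fold threshold, the replicate number or the clone as a block, only the groups compared, no 75-base libraries, clones summed, each library left out in turn and, chosen after seeing the data, both day 3 replicates 2 left out. Promoter motifs were searched as exact letters in RefSeq windows of 300 bases.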

Additional observations from a re-analysis of the deposited data

How the results depend on the processing

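The number of the 35 genes called in d3con against d0con was 6 and lay between 3 and 6 when single libraries were left out, the lowest without d0con replicate 1. In d3ko against d0ko it was 4, was 9 with no fold threshold, and lay between 1 and 6 with single libraries left out, with 1 without either d0ko library. In d3ko against d3con it was 1 and became 2 with no fold threshold and 2 by DESeq2 (Ddit3 and Derl3). It was 0 in the fit of only these groups, 0 without the 75-base libraries, 0 with replicates of a clone summed and 4 without both day 3 replicate 2 libraries, and lay between 0 and 4 with single libraries left out. Of all genes, 660 higher and 488 lower were called in the main fit. The first 3 of these alternatives called 7 and 60, 0 and 1, and 0 and 1 of all genes. Without both day 3 replicate 2 libraries 1521 and 1051 of all genes were called. In d2-FVFp against d2-FVFn it was 1, was 7 with no fold threshold, and lay between 1 and 2 with single libraries left out, Dnajc3 being the added gene. In d0ko against d0con and in the interaction it was 0 under every alternative run. The cause of these changes was not tested.

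Under a replicate block (the replicate number as a term) 0 genes were called in d3ko against d3con, where same-numbered libraries share no clone (correlations of 0.52, 0.29 and -0.02), and 6, 4, 0, 0 and 1 in the other comparisons, so that it changed no other call past the fold threshold. With no fold threshold it took the lower calls from 3 to 4 in d3con against d0con (Pdia3 added) and from 2 to 4 in d3ko against d0ko (Pdia3 and Dnajb11 added), removed Ddit3 and Sec61b in d3ko against d3con, and raised the count in d2-FVFp against d2-FVFn from 7 higher to 14 higher and 1 lower (correlation 0.27 over a single pair of numbers). Over all genes the counts in d2-FVFp against d2-FVFn rose from 1289 higher and 850 lower to 2626 and 2124. In d3ko against d3con they fell from 786 and 680 to 481 and 511. The clone as a block left 6 and 4 in the day comparisons and, with no fold threshold, changed no call but that of Calr. No called gene turned its direction in any alternative. With 2 or 3 libraries a group, genes outside the threshold are not shown to be unchanged.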
